A study of Mus musculus with 9 samples.

Results

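The 46 genes described here encode the mouse proteasome, its caps, its activators and its assembly chaperones, and they were taken by name (Psma to Psmg followed by a number) from a table of 15977 genes. The name rule matched 47 rows. Psmc3ip was set aside because it encodes a partner of a meiotic recombination protein and no proteasome subunit, and its values stand at the end. The 46 genes comprise 17 of the core (7 of the alpha ring, 7 constitutive and 3 inducible of the beta ring), 20 of the cap and 9 that encode activators, an inhibitor or chaperones of core assembly. All 9 libraries came from N2A cells, a mouse neuroblastoma line, with a knockout of the RNA helicase MOV10. RNA was taken 24 hours after transfection with 2 micrograms of DNA. The 3 groups of 3 libraries differ in the MOV10 form that the DNA encodes: WT, S970A, with alanine in place of serine 970, which cannot be phosphorylated, or S970D, with aspartate, which carries a negative charge as a phosphate does. Every group therefore shares the knockout and the transfection, and no untransfected or mock library was analysed here. The labels do not say whether the knockout cells are a single clone or whether replicates are separate cultures. The p-values therefore speak of the spread among these libraries, which may be technical. Values are log2 CPM, the deposited log2 of counts scaled by library size, and the depth behind them is unknown because no read counts were given.

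The proteasome is the protease of cytosol and nucleus that breaks down proteins tagged with ubiquitin. Its barrel-shaped core stacks alpha rings, which gate the entry, around beta rings, of which the subunits encoded by Psmb5, Psmb6 and Psmb7 carry the chymotrypsin-like, caspase-like and trypsin-like active sites. Interferon-inducible subunits encoded by Psmb8, Psmb9 and Psmb10 replace them in the immunoproteasome, which favours the making of peptides for antigen presentation. The cap binds and unfolds the tagged protein: its base holds ATPases of the Psmc genes and its lid removes ubiquitin. Psme1 and Psme2 encode the 11S activator found in the cytosol, Psme3 its nuclear relative, and Psme4 the large single-chain activator PA200.

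The cells carried their label. Of 16 markers of neuroblastoma or sympathetic neurons 15 were in the table and 12 averaged above 1 on the log2 CPM scale, while Th and Dbh, the enzymes of catecholamine synthesis, averaged -1.09 and -1.29. Of 8 macrophage and leukocyte markers 1 was in the table, Cd68, at 0.498 to 0.746 CPM with WT, 0.469 to 0.829 with S970A and 1.24 to 2.28 with S970D. The summed CPM of the neuroblastoma markers was 3268 to 3483 with WT, 3301 to 5079 with S970A and 4746 to 5457 with S970D, so it moved with the group, and the part of this in the results below was not tested. Markers of fibroblasts, endothelium, epithelium and glia reached summed levels of at most 21, 18.0, 3.11 and 10.1 CPM. Mov10 itself read 14.90, 15.49 and 15.71 log2 CPM with WT, 14.62, 15.24 and 15.42 with S970A and 14.57, 14.84 and 14.75 with S970D. In these bulk libraries fewer cells of a type and less RNA per cell cannot be told apart.

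S970A replicate 1 stood apart from its group for the proteasome genes. The median difference of the 46 genes from their WT means was 0.24, -0.11 and -0.15 in WT replicates 1, 2 and 3, 0.52, 0.04 and -0.11 in S970A replicates 1, 2 and 3, and 0.47, 0.34 and 0.35 in S970D replicates 1, 2 and 3 (log2 scale). S970A replicate 1 thus sat with the S970D libraries, and WT replicate 1 sat above the other WT libraries. In S970A replicate 1, 40 of the 46 genes lay above their WT mean, against 29 and 6 in S970A replicates 2 and 3. Its departure was not particular to the proteasome genes. In S970D against S970A 0% of all genes passed with it and 39.5% without it (limma adjusted p under 0.05, explained below). Results are therefore also given without S970A replicate 1 where it matters. The 46 genes took 0.771% to 0.962% of the summed CPM with WT, 0.778% to 1.04% with S970A and 0.964% to 1.04% with S970D.

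**Figure D1:**
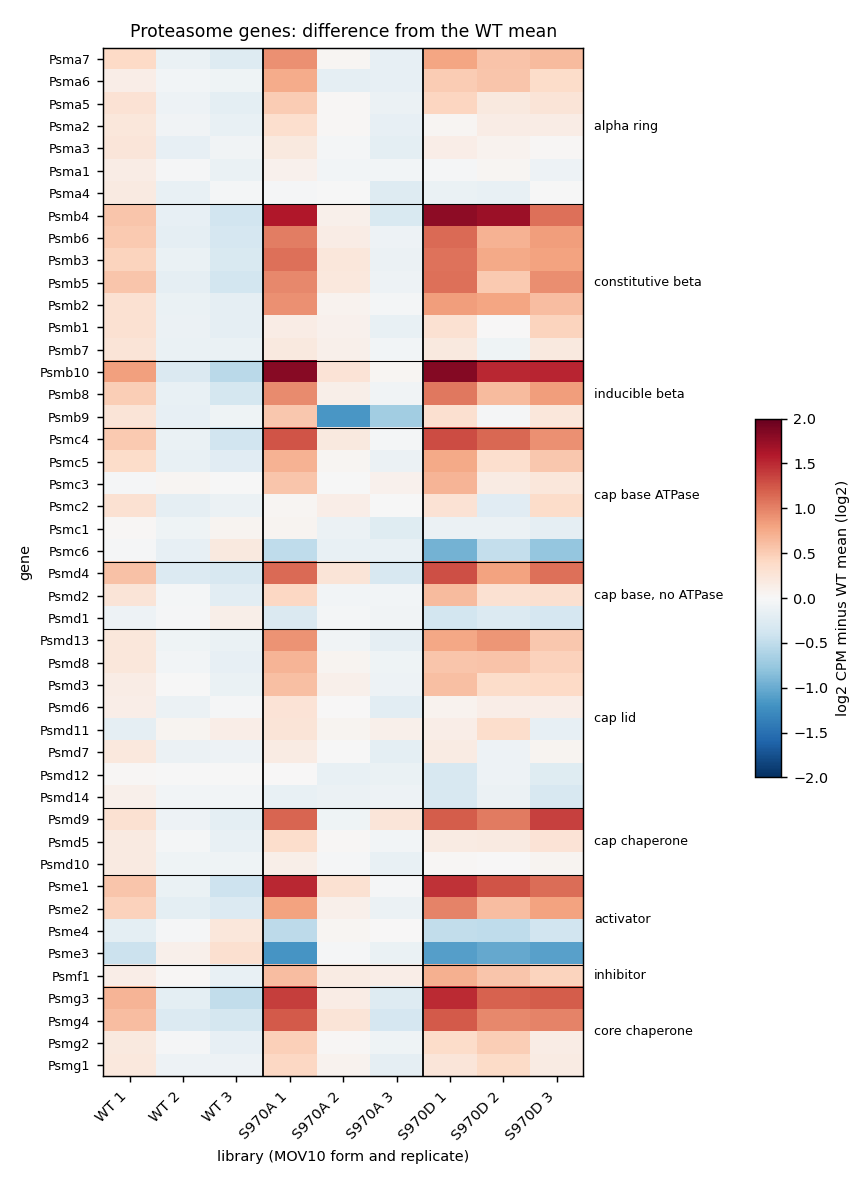
Each row is 1 of the 46 proteasome genes, ordered by role, and each column is 1 library. Colour gives log2 CPM minus the mean of the 3 WT libraries, red for higher and blue for lower. The columns of S970D and of S970A replicate 1 are alike in most rows but not in all. Above the WT mean lie 37, 34 and 36 genes in S970D replicates 1, 2 and 3, and 40 in S970A replicate 1.

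The transcription factors NRF1 and NRF2, encoded by Nfe2l1 and Nfe2l2, are known activators of proteasome genes and bind antioxidant response elements, whose core reads TGACNNNGC. RefSeq promoters (GRCm38.p6, from 250 bases before to 50 after the annotated start) were matched to 39 of the 46 genes. The core element was found on either strand in 6 of these 39 (15.4%), Psmb5, Psmb6, Psmc6, Psmd9, Psmd12 and Psme4, and in 14.0% of 27025 genes with a promoter. CCAAT, on either strand, was found in 13 of 39 (33.3%) and in 41.1% of all, and no matched proteasome promoter held both. A match describes letters and is no evidence of binding. Of the 6, a pair that read higher with S970D than with WT and a pair that read lower are shown, since the same element stands in both: the promoters of the catalytic subunits Psmb5 (chr14:54617946-54618245, minus strand) and Psmb6 (chr11:70525107-70525406, plus strand), both higher, and of the cap ATPase Psmc6 (chr14:45329574-45329873, plus strand) and the activator Psme4 (chr11:30771525-30771824, plus strand), both lower. Each runs 5′ to 3′ along its gene, and the capitals mark the match, which in Psmc6 and Psme4 lies on the opposite strand and so reads as the reverse complement.
Psmb5: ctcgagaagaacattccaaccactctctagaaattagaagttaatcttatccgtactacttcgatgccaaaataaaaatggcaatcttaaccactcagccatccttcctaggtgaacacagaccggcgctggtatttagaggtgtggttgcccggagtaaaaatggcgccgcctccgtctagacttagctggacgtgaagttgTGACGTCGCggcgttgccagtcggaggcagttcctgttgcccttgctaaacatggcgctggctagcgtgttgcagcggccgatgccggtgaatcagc
Psmb6: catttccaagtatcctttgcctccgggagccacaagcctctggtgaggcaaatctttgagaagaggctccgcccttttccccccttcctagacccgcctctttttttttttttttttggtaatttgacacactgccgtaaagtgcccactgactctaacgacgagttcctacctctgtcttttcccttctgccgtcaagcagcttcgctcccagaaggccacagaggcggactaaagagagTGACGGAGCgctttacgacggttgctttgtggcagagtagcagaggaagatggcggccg
Psmc6: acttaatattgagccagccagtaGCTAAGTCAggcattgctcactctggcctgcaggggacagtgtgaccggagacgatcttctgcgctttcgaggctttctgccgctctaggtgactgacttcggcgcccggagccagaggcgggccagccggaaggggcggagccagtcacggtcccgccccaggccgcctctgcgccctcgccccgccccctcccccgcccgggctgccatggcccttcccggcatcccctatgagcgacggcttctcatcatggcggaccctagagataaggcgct
Psme4: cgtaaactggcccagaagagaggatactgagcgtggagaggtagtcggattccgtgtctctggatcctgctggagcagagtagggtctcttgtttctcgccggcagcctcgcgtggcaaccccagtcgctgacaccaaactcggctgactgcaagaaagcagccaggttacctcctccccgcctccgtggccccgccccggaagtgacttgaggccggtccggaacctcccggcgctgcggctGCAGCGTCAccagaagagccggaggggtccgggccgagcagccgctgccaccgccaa
The matches begin 47, 9, 227 and 7 bases before the annotated start of Psmb5, Psmb6, Psmc6 and Psme4.

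S970D against WT asks how transcript levels differ when the residue at 970 imitates phosphoserine, in libraries that also differ in Mov10 level. Proteasome genes read mostly higher: 37 of 46 (80.4%) had a log2 fold change above 0, against 49.9% of all genes, and their median was 0.35, against -0.002 over all genes, with the middle 50% of the members between 0.08 and 0.83. With limma, a linear model with moderated variances across all genes, no proteasome gene passed at an adjusted p under 0.05 in the model with the group alone, fitted to all 9 libraries, where 0.00626% of all genes did. The lowest limma adjusted p of a proteasome gene was 0.0756, and 23 of the 46 had an unadjusted p under 0.05, against 44.3% of all genes. A block compares libraries of the same replicate number, which were taken as pairs from the data, since no label says what a number marks. The block was fitted to all 9 libraries, S970A included, although the S970A numbers did not meet the bound for pairs given below. With the replicate number as a block, 21 proteasome genes rose (45.7%) and 4 fell (8.7%), where 22.2% of all genes rose and 23.3% fell. The share that changed in either direction, 54.3% stood against 45.5% of all genes. The 3 S970D libraries lay above the 3 WT libraries in 21 genes (45.7%) and below them in 7 (15.2%), against 27.9% and 29.3% of all genes. At a limma adjusted p under 0.1 without the block, 17 proteasome genes were higher and 4 lower, where 19.3% and 20.3% of all genes were (39.6% together), and with the 6 libraries of WT and S970D alone 20 rose and 3 fell at 0.05, where 20.3% and 21.8% did (42.1% together).

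Which genes were called depended on the trend over GC content and length and on S970A replicate 1. Short and GC-rich transcripts read higher across the whole table. With that trend removed and no block, no proteasome gene passed (lowest limma adjusted p = 0.116), where 0% of all genes did. With the trend removed and the block kept, 13 proteasome genes passed as higher and 1 as lower, where 12.7% and 12% of all genes did. Of the 25 genes called with the block, 10 were also called there: Psmb4, Psmb8, Psmb10, Psmc4, Psmd2, Psmd9, Psme1, Psmf1 and Psmg3 as higher and Psme3 as lower. The other 4 called there, Psma2, Psma3, Psmb1 and Psmd5, had not been called before. Without S970A replicate 1, 22 genes rose and 4 fell in the fit without a block, where 22.8% and 24.9% of all genes did (47.7% together), and these 26 include all 25 called with the block. Both fits hold the same S970D and WT fold changes and differ only in the spread, so this overlap is no independent support. In what follows a limma adjusted p is for the fit with the group only unless the sentence names the block.

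**Figure D2:**
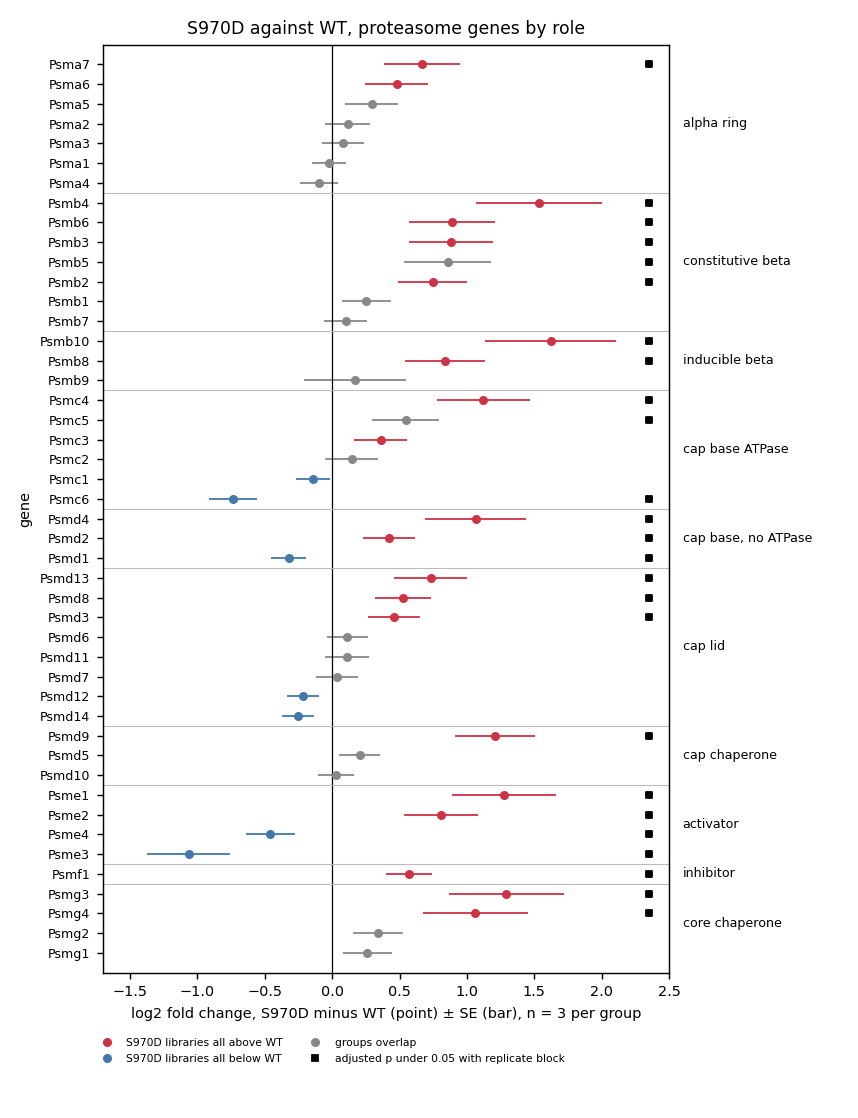
Points give the log2 fold change of each proteasome gene, S970D minus WT, and bars its SE (n = 3 per group), by role. Red and blue mark genes whose S970D libraries all lie above or all below the WT libraries, and a black square marks a limma adjusted p under 0.05 with the replicate block. The constitutive beta subunits lie at 0.10 to 1.53, the alpha subunits at -0.10 to 0.66, and with the GC and length trend removed their medians are 0.24 and 0.19.

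The core holds both rings. The 7 alpha subunits, which form the outer rings and the gate, had a median log2 fold change of 0.12 and ranged from -0.10 to 0.66, and 1 of them, Psma7, rose with the block (0.66 ± 0.28, SE; limma adjusted p = 0.104, and 0.0171 with the block). With the GC and length trend removed the alpha median was 0.19, and with the block as well Psma2 and Psma3 passed as higher and Psma7 did not (limma adjusted p = 0.201). Psma4 read 8.83, 8.51 and 8.61 log2 CPM with WT, 8.62, 8.64 and 8.39 with S970A and 8.51, 8.50 and 8.65 with S970D. Psma1 read 7.90, 7.72 and 7.62 with WT, 7.84, 7.70 and 7.69 with S970A and 7.73, 7.78 and 7.65 with S970D. Psma3 read 8.30, 7.89 and 7.98 with WT, 8.26, 8.02 and 7.87 with S970A and 8.20, 8.13 and 8.09 with S970D. In all 3 genes the groups overlapped. Their differences were -0.10 ± 0.14, -0.02 ± 0.13 and 0.08 ± 0.16 (SE), within the spread of the replicates (limma adjusted p = 0.603, 0.888 and 0.706), and the sign of each turned under some alternative scaling or library choice. With the trend removed Psma3 read 0.67 and passed with the block (limma adjusted p = 0.0201).

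The constitutive beta subunits had a median log2 fold change of 0.86, all 7 were above 0, and 5 rose with the block, Psmb2, Psmb3, Psmb4, Psmb5 and Psmb6. With the GC and length trend removed their median was 0.24, near the 0.19 of the alpha subunits, and with the block as well 2 passed as higher, Psmb1 and Psmb4. Psmb4, a subunit with no active site (ENSMUSG00000005779.12, chromosome 3, 94884093 to 94886961 of GRCm38, minus strand), read 7.34, 6.62 and 6.40 log2 CPM with WT, 8.38, 6.88 and 6.48 with S970A and 8.58, 8.50 and 7.89 with S970D. Its S970D libraries all lay above the WT libraries, and S970A replicate 1 lay among them. The difference from WT was 1.53 ± 0.47 (SE), 2.90-fold (limma adjusted p = 0.0756, 0.00646 with the block, and 0.00183 to 0.244 over the 21 alternatives).

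The 3 catalytic subunits of the constitutive core follow. Psmb6, of the caspase-like site, read 8.86, 8.16 and 8.0 with WT, 9.37, 8.49 and 8.24 with S970A and 9.47, 9.03 and 9.18 with S970D. Its S970D libraries lay above the WT libraries by a narrow margin, and the difference was 0.89 ± 0.32 (limma adjusted p = 0.0790, 0.00711 with the block, and 0.00167 to 0.515 over the alternatives). Psmb5, of the chymotrypsin-like site that proteasome inhibitors of the bortezomib kind block, read 7.06, 6.31 and 6.14 with WT, 7.46, 6.72 and 6.41 with S970A and 7.61, 7.03 and 7.44 with S970D. WT replicate 1 lay above S970D replicate 2, so the groups overlapped, and the difference was 0.86 ± 0.32 (limma adjusted p = 0.0827, 0.00875 with the block, and 0.00409 to 0.779 over the alternatives). Psmb7, of the trypsin-like site, read 8.31, 7.91 and 7.91 with WT, 8.24, 8.15 and 7.98 with S970A and 8.24, 7.96 and 8.23 with S970D. It overlapped between all groups, with a difference of 0.10 ± 0.16 (limma adjusted p = 0.641) that read -0.14 with the GC and length trend removed. The calls of Psmb5 and Psmb6 with the block ended with that trend removed (limma adjusted p = 0.755 and 0.400 with the block).

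All 3 inducible subunits were in the table. Psmb10, the immunoproteasome counterpart of Psmb7 (ENSMUSG00000031897.9, chromosome 8, 105935735 to 105938444, minus strand), read 5.81, 4.70 and 4.44 log2 CPM with WT, 6.81, 5.25 and 5.03 with S970A and 6.82, 6.48 and 6.50 with S970D. Each S970D library lay above each WT library, and S970A replicate 1 lay among the S970D libraries. The difference of 1.62 ± 0.48, 3.07-fold, was the highest of the 46 genes (limma adjusted p = 0.0756, 0.00642 with the block, and 0.00127 to 0.244 over the alternatives). Psmb8, the counterpart of Psmb5, read 6.03, 5.38 and 5.18 with WT, 6.47, 5.64 and 5.47 with S970A and 6.58, 6.16 and 6.36 with S970D, apart from WT in every library. Its difference was 0.84 ± 0.30 (limma adjusted p = 0.0783, 0.00743 with the block, and 0.00188 to 0.245 over the alternatives). Psmb9, the counterpart of Psmb6, was the lowest proteasome gene of the table per length, at 1.80 log2 CPM per kilobase against 9.08 for Psmb6, the highest. Psmb9 read 2.58, 2.16 and 2.24 log2 CPM with WT, 2.86, 1.16 and 1.64 with S970A and 2.65, 2.30 and 2.55 with S970D. WT and S970D overlapped, and S970A replicates 2 and 3 were below all other libraries. The S970D difference of 0.17 ± 0.38 was within the spread (limma adjusted p = 0.737) and read -0.37 with the GC and length trend removed.

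Ratios of an inducible subunit to its constitutive counterpart were compared on the log2 CPM per kilobase scale, by exact two-sided permutation tests, for which 0.1 is the smallest p that 3 against 3 allows. Psmb8 stood at -1.88, -1.79 and -1.81 relative to Psmb5 with WT and -1.89, -1.72 and -1.93 with S970D, a difference of -0.02 (exact p = 0.8), or 0.30 with the GC and length trend removed. Psmb10 stood at -2.68, -3.39 and -3.64 relative to Psmb7 with WT, -1.61, -3.08 and -3.13 with S970A and -1.60, -1.65 and -1.90 with S970D. The S970D and WT ratios did not overlap and differed by 1.52 (exact p = 0.1, 0.12 adjusted over 6 ratios), or by 1.12 with the GC and length trend removed. Psmb9 relative to Psmb6 went the other way, from -7.04, -6.76 and -6.53 with WT to -7.59, -7.50 and -7.39 with S970D, a difference of -0.72 (exact p = 0.1, 0.12 adjusted), or -0.49 with the trend removed. This was not particular to S970D. With S970A the ratio stood at -7.26, -8.09 and -7.36, a difference from WT of -0.80 (exact p = 0.1, 0.3 adjusted), and S970D differed from S970A by 0.08.

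**Figure D3:**
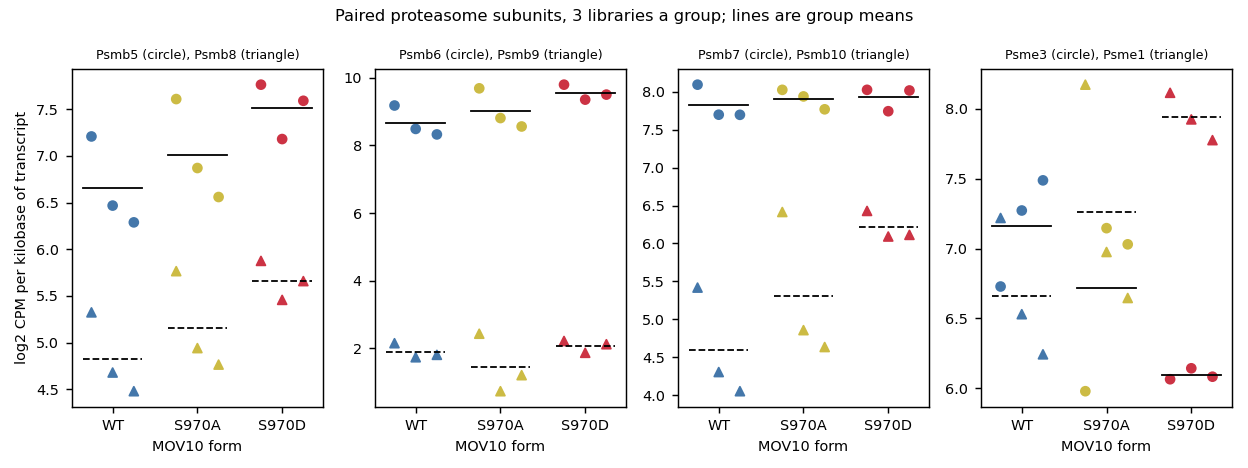
Points are libraries and lines group means, in log2 CPM per kilobase of transcript, for each constitutive catalytic subunit with its inducible counterpart and for the activators Psme3 and Psme1. Psmb5 and Psmb8 keep their distance, Psmb10 draws nearer to Psmb7 with S970D, and Psme1 stands above Psme3 in all S970D libraries and in the first library of WT and of S970A.

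The cap had a median log2 fold change of 0.17, against 0.48 for the core, and with the GC and length trend removed the medians were 0.15 and 0.24. Of its 20 genes 15 were above 0. With the block 8 rose (40%) and 2 fell (10%), against 22.2% and 23.3% of all genes, and with the trend removed as well 4 rose (20%) and none fell, against 12.7% and 12%. Within the base, ATPases that sit in the same ring lay on opposite sides. Psmc4 (ENSMUSG00000030603.16, chromosome 7, 28041707 to 28050101, minus strand) read 7.60, 6.95 and 6.70 log2 CPM with WT, 8.34, 7.28 and 7.05 with S970A and 8.38, 8.24 and 7.99 with S970D. Its S970D libraries lay above all WT libraries, and the difference was 1.12 ± 0.35 (limma adjusted p = 0.0756, 0.00646 with the block, and 0.00136 to 0.244 over the alternatives). Psmc6 (ENSMUSG00000021832.8, chromosome 14, 45329788 to 45349705, plus strand), whose promoter is printed above, read 7.42, 7.29 and 7.64 with WT, 6.94, 7.30 and 7.30 with S970A and 6.50, 6.97 and 6.68 with S970D. Its S970D libraries lay below all WT libraries, and it fell with the block by 0.74 ± 0.18 (limma adjusted p = 0.0756 without the block and 0.00842 with it). Psmc6 has the most AT-rich transcript of the 46, at 37.0% GC, and its difference read -0.06 with the trend removed, where it did not pass with the block (limma adjusted p = 0.794). The log2 ratio of Psmc4 to Psmc6 per kilobase, a pair chosen after the values were seen, went from 0.27 ± 0.56 with WT to 2.12 ± 0.34 with S970D (mean ± SD, n = 3; exact p = 0.1, 0.12 adjusted). This difference of 1.86 read 0.79 with the trend removed. With all S970D libraries above WT for Psmc4 and below WT for Psmc6, the exact p was fixed beforehand and decides nothing. Among the other ATPases Psmc5 rose with the block (0.54 ± 0.25, limma adjusted p = 0.122, and 0.0159 with the block), a call that ended with the trend removed (limma adjusted p = 0.131), and Psmc1, Psmc2 and Psmc3 did not pass.

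The base subunits without ATPase activity bind ubiquitin and its carriers. Psmd4, a ubiquitin receptor, read 8.53, 7.66 and 7.62 with WT, 9.07, 8.19 and 7.62 with S970A and 9.22, 8.74 and 9.04 with S970D. Its S970D libraries all exceeded the WT libraries, by 1.07 ± 0.37 (limma adjusted p = 0.0775, 0.00844 with the block, and 0.00301 to 0.244 over the alternatives). Psmd1, a scaffold, read 8.36, 8.44 and 8.58 with WT, 8.17, 8.42 and 8.39 with S970A and 8.09, 8.19 and 8.13 with S970D. It lay lower in each S970D library and fell with the block by 0.32 ± 0.13 (limma adjusted p = 0.0950 without the block and 0.0469 with it), but its difference was 0.003 with the trend removed. Psmd1 shares exon sequence on the same strand with Gm21972, so its reads may be shared. Psmd2, the other scaffold, rose with the block (0.42 ± 0.19, limma adjusted p = 0.121, and 0.020 with the block).

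The lid had a median log2 fold change of 0.11. Psmd3, Psmd8 and Psmd13 rose with the block, by 0.46 ± 0.19, 0.53 ± 0.21 and 0.73 ± 0.27 (limma adjusted p = 0.0241, 0.0242 and 0.0199 with the block), and none of the 8 fell. With the GC and length trend removed the lid median was 0.03, Psmd3 read -0.01, and all 3 calls ended (limma adjusted p = 0.933, 0.259 and 0.0571 with the block). Psmd14, the metalloprotease that cuts ubiquitin from the substrate, read 7.49, 7.35 and 7.35 with WT, 7.25, 7.28 and 7.29 with S970A and 7.07, 7.28 and 7.07 with S970D. Each WT library lay above each S970D and each S970A library. The S970D difference of -0.25 ± 0.12 did not pass (limma adjusted p = 0.136, and 0.106 with the block). Among the chaperones that assemble the base, Psmd9 read 4.52, 4.12 and 4.04 with WT, 5.39, 4.14 and 4.47 with S970A and 5.43, 5.26 and 5.60 with S970D. Its S970D libraries lay well above WT, with a difference of 1.21 ± 0.30, 2.31-fold (limma adjusted p = 0.0756, 0.00715 with the block, and 0.00157 to 0.244 over the alternatives). Psmd5 and Psmd10, chaperones of the same step, differed by 0.20 ± 0.15 and 0.03 ± 0.13 (limma adjusted p = 0.306 and 0.879), and with the trend removed Psmd5 read 0.74 and passed with the block (limma adjusted p = 0.0259).

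The activators held both the lowest fold change of the 46 genes and some of the highest. Psme3, the nuclear activator (ENSMUSG00000078652.9, chromosome 11, 101316213 to 101323537, plus strand), read 8.14, 8.69 and 8.90 log2 CPM with WT, 7.39, 8.56 and 8.44 with S970A and 7.48, 7.56 and 7.50 with S970D. The S970D libraries lay close together and below every WT library, and S970A replicate 1 lay below them all. Psme3 fell with the block by 1.06 ± 0.31, to 0.478 of WT (limma adjusted p = 0.0756 without the block, 0.00802 with it, and 0.00127 to 0.244 over the alternatives). It was the 1 member called as lower with the trend removed (-0.94; limma adjusted p = 0.0179 with the block). Psme1, of the cytosolic activator (ENSMUSG00000022216.17, chromosome 14, 55578123 to 55581529, plus strand), read 7.37, 6.68 and 6.40 with WT, 8.32, 7.13 and 6.80 with S970A and 8.27, 8.08 and 7.93 with S970D. Its S970D libraries all lay above WT, by 1.27 ± 0.39, 2.42-fold (limma adjusted p = 0.0756, 0.00652 with the block, and 0.00127 to 0.244 over the alternatives). Psme2, whose product shares a ring with that of Psme1, rose with the block by 0.81 ± 0.27 (limma adjusted p = 0.0759, and 0.00715 with the block), and this call ended with the trend removed (limma adjusted p = 0.0712 with the block).

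Psme1 and Psme3 encode alternative ring activators. The log2 ratio of Psme1 to Psme3 per kilobase, a pair chosen after the values were seen, was 0.49, -0.74 and -1.24 with WT, 2.19, -0.17 and -0.38 with S970A and 2.05, 1.78 and 1.69 with S970D. Psme1 thus exceeded Psme3 in each S970D library, in S970A replicate 1 and in WT replicate 1, and the S970D and WT ratios differed by 2.34 without overlap (exact p = 0.1, 0.12 adjusted), or by 1.60 with the trend removed. All S970D libraries lay above WT for Psme1 and below WT for Psme3, so this exact p was fixed beforehand and decides nothing. The fixed p of this pair and of Psmc4 with Psmc6 also enter the adjustment over all ratios. Psme4, which encodes PA200, read 7.32, 7.50 and 7.75 with WT, 6.99, 7.56 and 7.52 with S970A and 7.03, 7.02 and 7.14 with S970D. It lay lower in each S970D library and fell with the block by 0.46 ± 0.18 (limma adjusted p = 0.0938 without the block and 0.0290 with it), but its difference was 0.22 with the trend removed. Its transcript of 6491 bases is the longest of the 46. Psmf1, an inhibitor of the core, read 5.37, 5.26 and 5.08 with WT, 5.86, 5.41 and 5.38 with S970A and 5.94, 5.79 and 5.69 with S970D. Both mutants lay above WT in every library, and the S970D difference was 0.57 ± 0.17 (limma adjusted p = 0.0756, and 0.00884 with the block).

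Core assembly is guided by 2 chaperone pairs, of Psmg1 with Psmg2 and of Psmg3 with Psmg4, and the second pair rose with the block. Psmg3 read 5.71, 4.84 and 4.53 with WT, 6.41, 5.17 and 4.76 with S970A and 6.52, 6.21 and 6.23 with S970D. Psmg4 read 3.99, 3.10 and 3.02 with WT, 4.59, 3.63 and 3.03 with S970A and 4.60, 4.33 and 4.37 with S970D. In both, S970D and WT did not overlap. The differences were 1.29 ± 0.42 (limma adjusted p = 0.0756, 0.00683 with the block, and 0.00135 to 0.244 over the alternatives) and 1.06 ± 0.39 (limma adjusted p = 0.0801, 0.00978 with the block, and 0.00284 to 0.285 over the alternatives). Psmg3 shares exon sequence on the same strand with Gm26938, and the call of Psmg4 ended with the trend removed (limma adjusted p = 0.174 with the block). Psmg1 read 6.09, 5.78 and 5.78 with WT, 6.30, 5.96 and 5.71 with S970A and 6.12, 6.27 and 6.04 with S970D. WT and S970D overlapped for Psmg1, with a difference of 0.26 ± 0.18 (limma adjusted p = 0.268) that read -0.16 with the trend removed. Psmg2 differed by 0.34 ± 0.19 (limma adjusted p = 0.180).

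Base composition and length of the transcript varied with the log2 fold change among the proteasome genes. Across the 46 genes Spearman's rho of the S970D log2 fold change was 0.76 with GC content and -0.50 with transcript length, and across 15959 genes of the table it was 0.52 and -0.44. These are descriptions across genes of the same libraries, which are not independent replicates. The 21 genes whose S970D libraries all lay above WT had a median GC content of 53.6% and a median length of 1276 bases. The 7 that lay below had medians of 44.3% and 2234 bases, and the 18 that overlapped 47.5% and 1369.5 bases. Proteasome transcripts are short, with a median of 1435 bases against 2578 over all genes, and their median GC content of 50.4% equals that of all genes. All genes were also divided by GC content into 10 bins of equal size, of which 9 hold proteasome genes, 3 to 7 each. In each of the 9 the proteasome median lay above that of all genes in the bin. Between 54.2% and 56.2% GC, for example, the 7 proteasome genes had a median of 0.89 and all 1596 genes one of 0.29. Among transcripts of 868 to 1322 bases, with 16 proteasome genes, the medians were 0.60 and 0.51, and among those of 1322 to 1737 bases, with 9, they were 0.11 and 0.31. With the trend over both properties removed from each library, 34 of the 46 stayed above 0 and the median was 0.21.

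**Figure D4:**
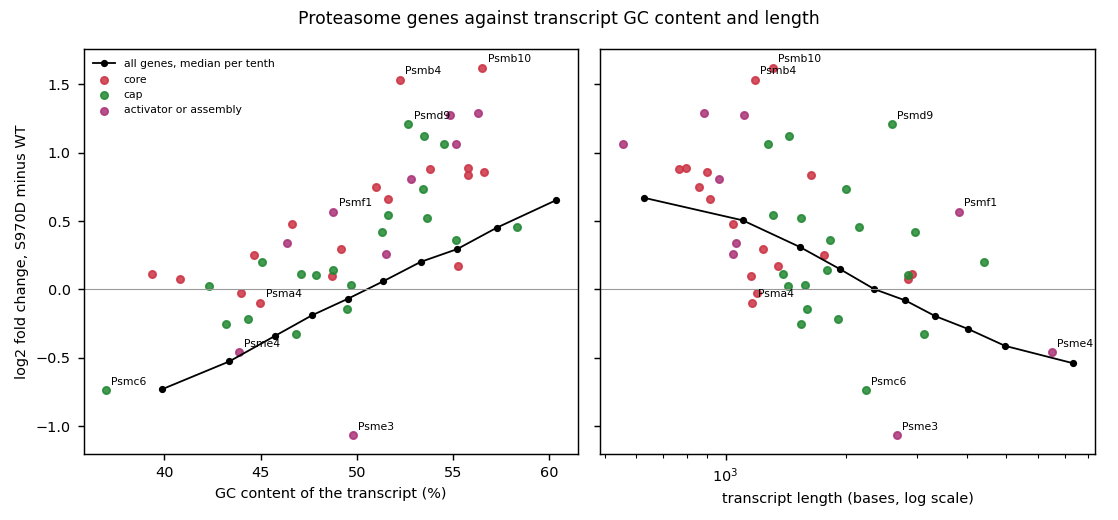
The log2 fold change of each proteasome gene, S970D minus WT, is plotted against the GC content (left, percent) and the length (right, bases, log axis) of its transcript, coloured by class. The black line gives the median of all genes in each of 10 bins of equal size. Most proteasome genes lie above the line on the left, while Psme3, at -1.06, lies below it.

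S970A against WT asks how transcript levels differ when residue 970 cannot be phosphorylated. S970A and S970D are compared with the same 3 WT libraries. No proteasome gene passed, nor any gene of the table (0%), and the lowest limma adjusted p of a proteasome gene was 0.776. No proteasome gene had an unadjusted p under 0.05 in limma, where 280 of 15977 genes (1.75%) did. The median log2 fold change of the 46 was 0.14, and 33 were above 0, against 49.3% of all genes, but the median was -0.04 without S970A replicate 1. The groups did not overlap in 2 genes, Psmf1 higher (0.31 ± 0.17) and Psmd14 lower (-0.12 ± 0.12), where 3.1% and 3.32% of all genes lay apart. Psmb10 and Psme1 had the highest differences, 0.71 ± 0.48 and 0.60 ± 0.39, and Psme3 and Psmb9 the lowest, -0.44 ± 0.31 and -0.44 ± 0.38, all with a limma adjusted p of 0.776. Without S970A replicate 1 those of Psmb10 and Psme1 were 0.15 and 0.15, that of Psme3 was -0.07 and that of Psmb9 was -0.93, and none passed.

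S970D against S970A compares the 2 mutants directly. Again 0 proteasome genes and 0% of all genes passed, with a lowest limma adjusted p of 0.411, and in limma 3 proteasome genes (Psmb4, Psmc6 and Psmd9) and 6.95% of all genes had an unadjusted p under 0.05. The median difference was 0.24, against -0.004 over all genes, and 37 of 46 genes were higher with S970D, against 49.7% of all genes. With the GC and length trend removed the median was 0.11 and 33 of 46 were higher. No proteasome gene had groups apart, where 3.96% of all genes lay higher and 4.11% lower. Psmb4 and Psmb10 differed most upwards, by 1.07 ± 0.47 and 0.91 ± 0.48, and Psme3 and Psmc6 downwards, by -0.62 ± 0.31 and -0.46 ± 0.18 (limma adjusted p = 0.411 for all 4). Left without S970A replicate 1, S970A had 2 libraries, and 22 proteasome genes were higher with S970D and 3 lower at a limma adjusted p under 0.05, against 18.7% and 20.8% of all genes. In that fit the differences were 1.64 for Psmb4, 1.47 for Psmb10, -0.99 for Psme3 and -0.58 for Psmc6 (limma adjusted p = 0.0145, 0.0169, 0.0148 and 0.0266, against 0.00442 to 0.877 over the alternatives of these genes), and Psmb9, the low-level gene, was also called (1.1, limma adjusted p = 0.0145). The moderated F test for any difference among the 3 groups called 0 proteasome genes and 0% of all genes, with 11 proteasome genes and 24.7% of all genes at an unadjusted p under 0.05. It called 19 proteasome genes with the block, where 29.5% of all genes passed, and 24 without S970A replicate 1, where 41% did.

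Genes that act with the proteasome were taken as 5 lists, whose medians in S970D against WT lay between -0.06 and 0.05. None of their genes passed in S970D against WT without the block, and their counts with the block stand against 22.2% of all genes that rose and 23.3% that fell (45.5% together). Of 12 measured factors that bind or assemble the proteasome without a Psm name, the median log2 fold change was 0.05, and 2 rose and 3 fell with the block. Adrm1, a ubiquitin receptor of the cap, read 8.40, 7.69 and 7.49 log2 CPM with WT and 9.08, 8.85 and 8.74 with S970D, apart in every library, and rose by 1.03 ± 0.35 (limma adjusted p = 0.0069 with the block), but read 0.28 and did not pass with the GC and length trend removed (limma adjusted p = 0.113 with the block). Zfand5, a proteasome-binding factor, and Ipo9, an importin that carries proteasomes into the nucleus, fell by 0.82 ± 0.23 and 0.74 ± 0.25 (limma adjusted p = 0.00816 and 0.00709 with the block). With the trend removed Zfand5 read -0.10 and did not pass, and Ipo9 read -0.34 and passed (limma adjusted p = 0.433 and 0.0373 with the block). Of 10 measured genes that control proteasome expression, the median was 0.05, and 1 rose and 1 fell with the block. Nfe2l1, the factor NRF1 named with the promoters above, read 8.27, 8.44 and 8.55 with WT, 7.89, 8.44 and 8.49 with S970A and 7.99, 7.86 and 8.11 with S970D. Its S970D libraries lay below WT, and Nfe2l1 fell with the block by 0.43 ± 0.18 (limma adjusted p = 0.106 without the block and 0.0430 with it), and passed with the trend removed too (-0.69; limma adjusted p = 0.0241 with the block). Nfe2l2 (NRF2) differed by 0.19 ± 0.16 (limma adjusted p = 0.376). Keap1, which holds NRF2 back, rose with the block by 0.42 ± 0.21 (limma adjusted p = 0.152, and 0.0456 with the block), a call that ended with the trend removed, where Keap1 read 0.05 (limma adjusted p = 0.760 with the block). Ddi2, the protease that activates NRF1, differed by -0.31 ± 0.17 (limma adjusted p = 0.178).

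The 6 ubiquitin and E1 genes had a median of -0.06. Of these, 2 rose and 1 fell with the block, beside 22.2% and 23.3% of all genes. Rps27a, in which ubiquitin is fused to a ribosomal protein, rose by 1.11 ± 0.39 (limma adjusted p = 0.00861 with the block) and passed with the GC and length trend removed (0.74; limma adjusted p = 0.0231 with the block). Uba6, an E1 enzyme, fell by 1.23 ± 0.44 (limma adjusted p = 0.00819 with the block), but read -0.23 and did not pass with the trend removed (limma adjusted p = 0.265 with the block). Ubb, a polyubiquitin gene, differed by 0.13 (limma adjusted p = 0.542) and did not pass with the block. Of 12 measured shuttle and unfolding factors 3 rose and 4 fell with the block, among them the shuttle factor Rad23b, which fell by 0.99 ± 0.37 (limma adjusted p = 0.00673 with the block, and 0.0296 with the trend removed as well). Of 10 antigen-processing and interferon-response genes, which go with the inducible subunits, 3 rose and 2 fell with the block. Erap1, which trims peptides, read 4.46, 5.27 and 4.90 with WT and 3.06, 3.75 and 3.98 with S970D, without overlap, and fell by 1.28 ± 0.31 (limma adjusted p = 0.00642 with the block). H2-K1, a class I heavy chain, rose by 0.60 ± 0.25 (limma adjusted p = 0.0205 with the block). Both calls ended with the trend removed, where Erap1 read -0.51 and H2-K1 0.09 (limma adjusted p = 0.0858 and 0.744 with the block). Tap1, which is a neighbour of Psmb8 and Psmb9 in the genome, differed by 0.21 (limma adjusted p = 0.396).

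The authors' deposited table gives 6419 genes a colour, with no rule stated, and 27 proteasome genes carry one in the authors' deposited table. Blue marks 18 of them, turquoise the 5 genes Psmc6, Psmd1, Psmd12, Psme3 and Psme4, brown the 4 genes Psma6, Psmd4, Psmd9 and Psmg4, and yellow none, in the authors' deposited table. Over all 15977 genes, blue marks 2194, turquoise 2956, brown 785 and yellow 484 in the authors' deposited table. All 5 turquoise proteasome genes were among the 7 whose S970D libraries lay below WT, where 29.3% of all genes did. The colours may come from these same libraries, so this match is no independent support. Psmc3ip, matched by the name rule only, read 4.38, 4.14 and 4.01 log2 CPM with WT, 4.68, 4.04 and 3.87 with S970A and 4.47, 4.51 and 4.32 with S970D. Its groups overlapped, with an S970D difference of 0.25 ± 0.22 (limma adjusted p = 0.366). Proteasome genes have processed pseudogenes, and how the authors' counting shared reads among near-identical copies is not given in the sources used here.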

How the data were processed

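RNA from 9 libraries, 3 per MOV10 form, was sequenced with a stranded mRNA kit, per the labels. Salmon 1.1.0, bcl2fastq 2.20, R 3.6.3 and GRCm38 stand in the submitters' processing notes. The authors deposited log2 CPM for 15977 genes, 1 column per library, and a row order and colour (other columns, deposited by the authors with no stated rule). Its prior count, scaling and filter are not stated. Summed CPM was 955214 to 1069215 per library. The lowest value, -4.09, was held by 50 to 93 genes per library and by no proteasome gene. Depth and its precision are unknown.

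The deposited log2 values of all genes in all 9 libraries were fitted with limma 3.58.1 (R 4.3.3), with group only (6 residual degrees of freedom), an intensity trend and Benjamini-Hochberg adjustment over all genes. The fit was also tested on simulated data, with noise drawn separately for each gene. That simulation held no effect shared by a library or tied to GC content and length, so it does not vouch for the counts given here. A gene passed at 0.05. The replicate-block fit took in all 9 libraries and has 4 residual degrees of freedom. Replicate numbers came from the titles, and no label says what they mark: deviations of same-numbered S970D and WT libraries correlated at 0.31, 0.11 and 0.16, so the numbers were taken as pairs there. For S970A with WT they correlated at 0.59, 0.07 and 0.49 and for S970D with S970A at 0.38, 0.004 and 0.24, which misses the bound of 0.1. The block fit nonetheless paired the S970A libraries too. Its calls in S970D against WT and in the test of any difference therefore rest on those pairs as well. Transcript length, GC content and coordinates came from GENCODE vM21 (GRCm38), from the transcript with the longest coding sequence, which may not be the form expressed. The GC and length trend was removed per library with splines of 5 degrees of freedom each. Ratios between genes were tested by exact permutation (SciPy 1.17.1).

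The members and lists were chosen with earlier results of these data known. Named with every library are the 6 catalytic beta subunits, the 3 highest and 3 lowest members of each class in S970D against WT, and the 2 highest and 2 lowest in each other comparison, and, per list, up to 3 genes with the smallest p. Psma7, Psmb2, Psmb3, Psmc5, Psmd2, Psmd3, Psmd8, Psmd13, Psme2, Psmf1 and the further list genes were named after their values were seen. Some genes of the lists are counted and their values are not reported here.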

Additional observations from a re-analysis of the deposited data

How the results depend on the processing

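The counts of proteasome genes that passed moved with the fit, and so did the share of all genes that passed, given in brackets. For S970D against WT the count was 0 with the group only. It stayed 0 with a filter on mean log2 CPM, log2(CPM + 1), quantile normalization, median centring or another variance model. With the GC and length trend removed and no block it was 0 too (0%). It was 25 with the replicate block (45.5%), 14 with the trend removed and the block (24.8%), 23 in the 6 libraries compared (42.1%), 14 with the trend removed and S970A replicate 1 left out (26%), 28 without the 3 libraries numbered 1 (49.2%) and 21 at a threshold of 0.1 (39.6%). Without S970A replicate 1 it was 26 (47.7%), and leaving out any other single library gave 0. For S970D against S970A it was 11 with the trend removed and S970A replicate 1 left out (17%), 24 without the 3 libraries numbered 1 (38.2%), and 0 to 25 with each library left out, 25 being without S970A replicate 1 (39.5%). For any difference among the groups it was 19 with the block (29.5%), 7 with the trend removed and the block (7.26%), 13 with the trend removed and S970A replicate 1 left out (18.3%), 26 without the 3 libraries numbered 1 (41.3%), and 0 to 24 with each library left out, 24 being without S970A replicate 1 (41%). In these 2 comparisons as well, leaving out any other single library gave 0. The median for S970A against WT ran from -0.042 to 0.26 with each library left out, and was -0.035 with the trend removed and S970A replicate 1 left out. The median for S970D against WT stayed between 0.21 and 0.46. After median centring all genes had a median of 0.11, and the 0.46 of the proteasome genes there is read against it.

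Of 45 gene results 36 kept their direction under all 21 alternatives. Those that change only the filter, the variance model, the block or the libraries of the third group leave the fold change as it is. The direction could not turn there, so the count says less than 21 independent checks would. For S970D against WT the settings with the trend removed also share a single value per gene. For S970D against WT, the trend removed alone, with the block or without S970A replicate 1 gave -0.14 for Psmb7, -0.37 for Psmb9, 0.0030 for Psmd1, 0.22 for Psme4 and -0.16 for Psmg1. Psma4 read 0.015 with median centring and without the 3 libraries numbered 1, and Psma1 read 0.088 and 0.047 there and -0.088 to 0.051 with each library left out. Psma3 read -0.00181 with quantile normalization and -0.0033 to 0.20 with each library left out, but 0.67 with the trend removed, where it passed with the block. Psmc6 in S970D against S970A read 0.045 with the trend removed and S970A replicate 1 left out. The trend removal takes out any difference that runs along GC content or length, whatever its source. The cause of these turns was not tested. The block changed calls in S970D against WT and in the test of any difference, and in S970A against WT and S970D against S970A it gave 0 calls. The 2 comparisons with S970A rest on whether S970A replicate 1 is kept, and with 3 libraries a group no exact test can fall below 0.1.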
